A study of Mus musculus with 2040 samples.

Results

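Potassium channel genes were described here as every gene column of the deposited table whose symbol starts with Kcn, which gave 99 genes of 32245 columns. Their levels were compared between astrocyte-like cells of 3 brain tissues, oligodendrocyte-like cells and neuron-like cells. By subunit role the 99 genes are 15 inward rectifiers (Kcnj), 14 two-pore channels (Kcnk), 10 calcium-activated and 2 sodium-activated channel genes, 40 voltage-gated pore subunits, 12 voltage-gated auxiliary subunits and 6 other symbols, most of them non-coding RNAs. A level of at least 1 CPM (counts per 1000000 reads) in at least 2 mouse profiles was reached by 79 of them, and only these 79 could be tested. No read was found in any cell for 3 of the 99.

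RNA was sequenced from single sorted cells of C57Bl/6J mice that expressed the yellow fluorescent protein SYFP2. Each of the 47 mice had been given 1 adeno-associated virus (AAV) whose reporter is driven by 1 of 30 enhancers or promoters, so the cells of a group are those that its vectors labelled and the sorter kept. The VISp astrocyte-like group (visual cortex) held 739 cells of 19 mice and 12 vectors: 3xCore2(390m), GFAP_promoter, ProB12, eHGT_373m, eHGT_374m, eHGT_376h, eHGT_380h, eHGT_385m, eHGT_386m, eHGT_387m, eHGT_390h and eHGT_390m. The MB/HB group (midbrain and hindbrain) held astrocyte-like cells of 4 mice, called MB/HB mice 1 to 4 here: 39 and 32 cells of mice 1 and 2, given eHGT_381h, and 42 and 36 cells of mice 3 and 4, given MGT_E160m. The CBX group (cerebellar cortex) held 81 astrocyte-like cells of 2 mice given eHGT_375m, 43 of CBX mouse 1 and 38 of CBX mouse 2. The VISp oligodendrocyte-like group held 927 cells of 22 mice and 15 vectors: MBP_promoter, eHGT_361h, eHGT_391h, eHGT_395h, eHGT_396h, eHGT_396m, eHGT_397m, eHGT_400h, eHGT_400m, eHGT_401h, eHGT_403h, eHGT_405m, eHGT_409h, eHGT_410m and eHGT_641m. The VISp neuron-like group held 52 cells of 3 mice, 7 of neuron mouse 1 (eHGT_374m) and 19 and 26 of neuron mice 2 and 3 (MBP_promoter). These mouse numbers are names only, and per-mouse values are listed in their order. The vectors of the 3 tissues were all different, so vector and tissue cannot be told apart. The labels used here give no age, sex or virus dose.

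Potassium channels let K+ pass through a pore lined by a short signature around a glycine-tyrosine-glycine or glycine-phenylalanine-glycine triplet. Astrocytes are known for a high resting K+ conductance carried by inward rectifiers and two-pore channels, through which they take up K+ released by active neurons; voltage-gated channels shape the firing of neurons, and calcium-activated channels couple the membrane to internal calcium. Oligodendrocytes also carry inward rectifiers, and auxiliary subunits alter the gating and placement of the voltage-gated pores.

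The coding sequence around the signature is shown for the members on which the results turn, from the GENCODE M21 transcripts on GRCm38, with the 3 signature codons in capitals and each line reading 5′ to 3′. The first 3 genes are those that separate astrocyte-like cells by tissue or from other cells.
Kcnj10 (chr1:172341210-172374085, plus strand): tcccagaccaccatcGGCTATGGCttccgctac
Kcnk1 (chr8:125995170-126030685, plus strand): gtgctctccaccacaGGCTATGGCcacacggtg
Kcnd2 (chr6:21215503-21729805, plus strand): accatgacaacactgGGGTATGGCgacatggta

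The next 3 are shown because Kcnj3 was high and Kcnq3 low in CBX astrocyte-like cells, and Kcna1 was high in oligodendrocyte-like cells.
Kcnj3 (chr2:55435970-55598145, plus strand): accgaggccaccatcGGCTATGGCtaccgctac
Kcnq3 (chr15:65986387-66286642, minus strand): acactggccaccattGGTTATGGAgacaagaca
Kcna1 (chr6:126640397-126646384, minus strand): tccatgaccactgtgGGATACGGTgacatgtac

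Kcnk13 (chr12:99964499-100062682, plus strand) is shown with the first of its pore signatures, which holds a phenylalanine codon (TTT) where the genes above hold tyrosine codons.
Kcnk13, first pore: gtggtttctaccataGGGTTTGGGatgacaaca

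A search of the translated coding sequences for the signature (threonine or serine, any residue, glycine, tyrosine or phenylalanine, glycine) matched 77 of the 94 members with a coding sequence. A match was found in all 15 inward rectifiers, all 40 voltage-gated pore subunits, all 14 two-pore genes (11 with 2 or more matches), both sodium-activated genes, 6 of 10 calcium-activated genes and none of the 12 auxiliary subunits. Of 21981 other coding symbols, 2.27% held a match, so a match is a description of the letters and not of a channel. With threonine alone at the first position 66 members matched, and the wider form was taken after that count was seen.

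The astrocyte, oligodendrocyte and neuron labels were rebuilt from marker genes that include no Kcn gene. The summed CPM of 12 astrocyte markers was 30922 to 40583 in VISp, 29549 to 37317 in MB/HB and 37626 and 39099 in CBX astrocyte-like profiles, against 229.8 to 1271 in oligodendrocyte-like and 120.98 to 212.6 in neuron-like profiles. The astrocyte-like cells of the 3 tissues fell largely into different clusters: all but 2 of the VISp cells in clusters 0, 3 and 9, all but 8 of the MB/HB cells in cluster 4, and 79 of the 81 CBX cells in cluster 6, whose 5 leading genes were Gdf10, Vim, Gria1, Npy and Hopx and whose top 10 genes held 0 astrocyte markers, although all 12 were detected. Cluster 6 also held 6 MB/HB cells, and its cells came from 3 mice, the 2 CBX mice among them. The part of these 6 cells in the MB/HB levels was not tested. The neuron-like cells were GABAergic, with a summed GABAergic marker level of 2769 to 6790 CPM and a glutamatergic one of 0.306 to 4.21 CPM. Markers of other cells differed between the groups. The 12 oligodendrocyte markers summed to 171.1 to 1311 CPM (median 393.2) in VISp, 1092 to 6262 (median 1498) in MB/HB and 1935 and 2224 CPM in CBX astrocyte-like profiles, with 2 of the 12 at 0 in CBX. The 12 neuron markers summed to 19.1 to 396.6, 33.6 to 398.2, and 142.3 and 310.1 CPM in the same order. Markers of oligodendrocyte precursor cells (OPC) summed to 62.95 to 206.6 CPM in MB/HB and 39.96 and 40.8 CPM in CBX. VISp astrocyte-like profiles held 5.43 to 50.4 CPM. Fibroblast markers summed to 29.3 to 83.2, 49.2 and 59.4, and 0.192 to 13.8 CPM in the same order. The part of other cells' RNA in the Kcn levels was not tested. In MB/HB, mouse 4 had the highest oligodendrocyte and neuron sums and mouse 2 the highest endothelial (1214 CPM) and mural (2594 CPM) sums. Median depth was 431572, 409654, 375425, 443361 and 422932 reads per cell in VISp, MB/HB and CBX astrocyte-like, oligodendrocyte-like and neuron-like cells.

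The leading K+ channel genes were partly shared between the astrocyte-like groups. Levels of different genes were compared as CPM per kilobase of merged exons, as medians over mice. In VISp astrocyte-like cells Kcnk1 led at 540.8, followed by Kcnip3 at 52.4, Kcnj16 at 42.5, Kcnn2 at 41.2 and Kcnj10 at 31.1. MB/HB astrocyte-like cells were led by Kcnk1 at 384.2, Kcnd2 at 228.6, Kcnip3 at 124.1, Kcnj10 at 114.1 and Kcnj16 at 75.8. Kcnk1 was not among the leading 8 genes of CBX astrocyte-like cells, where Kcnj16 at 65.97, Kcnip3 at 65.9 and Kcnj10 at 45.5 led. Oligodendrocyte-like cells were led by Kcnk13 at 92.96 and Kcnj10 at 32.8, then Kcna1 at 22.7 and Kcna6 at 15.5. In neuron-like cells the auxiliary subunits Kcnip1 at 108.6 and Kcnip4 at 76.7 came first, ahead of Kcnk1 at 59.04 and Kcnc2 at 36.2. The order of neighbours in these lists was not tested.

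**Figure D1:**
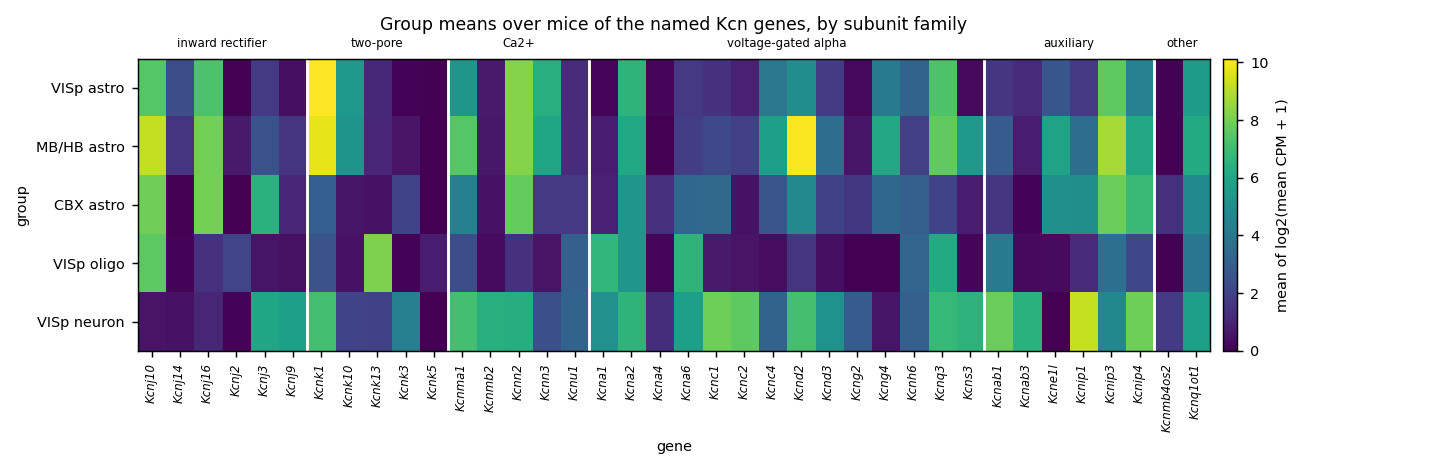
Heat map of the mean over mice of log2(mean CPM + 1) for named Kcn genes (columns, by subunit role) in the 5 groups (rows). Kcnj10 is high in every glial group and near 0 in neuron-like cells, Kcnk13 in oligodendrocyte-like cells, and Kcnk1 in VISp and MB/HB but not in CBX astrocyte-like cells.

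A median of at least 10 CPM over mice was reached by 17 Kcn genes in VISp, 23 in MB/HB and 14 in CBX astrocyte-like cells, by 9 in oligodendrocyte-like cells and by 43 in neuron-like cells. The summed level of all Kcn genes was 2318 to 3756 CPM (median 2801) in VISp, 3905 to 5205 (median 5038) in MB/HB and 1503 and 1596 CPM in CBX astrocyte-like profiles. It was 781 to 1349 CPM (median 964) in oligodendrocyte-like and 3313 to 4071 CPM (median 3767) in neuron-like profiles. The sums of the 3 astrocyte-like groups did not overlap. The sum is weighted by the highest genes, which by median CPM were Kcnk1 in VISp, Kcnd2 and Kcnk1 in MB/HB, Kcnj16 and Kcnj10 in CBX, Kcnk13 in oligodendrocyte-like and Kcnip1 in neuron-like cells.

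Across the 3069 panel genes tested, differences between groups were fitted with limma on the log2(mean CPM + 1) of each mouse, and a gene was called at an adjusted p under 0.05. Fold changes are given as log2 differences on that scale, with their standard error (SE), and understate the change of low genes. Each pair of contrasts between tissues shares the VISp, the MB/HB or the CBX mice, and those between cell classes share the VISp mice. In MB/HB against VISp astrocyte-like cells, 14 Kcn genes were higher and 1 was lower, of 79, where 7.46% of all genes tested were higher and 6.29% lower. In CBX against VISp, 8 were higher and 6 lower (7.23% and 5.18% of all genes), and in CBX against MB/HB 4 were higher and 13 lower (5.57% and 5.70%). The median log2 difference of the 79 Kcn genes was 0.31, -0.02 and -0.33 in these 3 contrasts, against -0.02, -0.07 and -0.02 for all genes. With genes that a group lists at 0 set to the bound of 3 reads, the CBX against VISp median became 0.02, a change of sign. The groups did not overlap for 5 of the 14 higher genes in MB/HB against VISp and did for the lower 1. They did not overlap, higher and lower, for 3 of 8 and 5 of 6 in CBX against VISp, and for 2 of 4 and 12 of 13 in CBX against MB/HB. The share of all called genes without overlap is not given here, and groups of few mice separate easily. These counts are therefore descriptions and say nothing particular to Kcn genes.

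In oligodendrocyte-like against astrocyte-like cells of VISp, 7 Kcn genes were higher and 30 lower, against 18% and 33.6% of all genes. Neuron-like cells had 44 Kcn genes higher and 10 lower than VISp astrocyte-like cells (23.4% and 17.6% of all genes), and 49 higher and 4 lower than oligodendrocyte-like cells (28% and 12.7%). The median log2 difference of the Kcn genes was -0.47, 1.72 and 2.71 in these 3 contrasts, against -0.20, -0.04 and 0.15 for all genes. With only mice from AB plates (a prefix of the plate names), which hold all MB/HB, CBX and neuron-like mice, the counts higher and lower were 12 and 0, 7 and 5, and 4 and 12 for the tissue contrasts, and 8 and 27, 42 and 9, and 46 and 4 for the class contrasts. The other prefix, SM, marked plates of 3 astrocyte-like and 6 oligodendrocyte-like VISp mice, and no contrast between tissues can be made within it.

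Kcnj10 encodes Kir4.1, the main inward rectifier of glia. Its mean CPM was 751, 655.5, 408.2 and 579 in the 4 MB/HB mice, 245.99 and 246.1 in the 2 CBX mice, and 110.8 to 280.6 (median 167.9) in the 19 VISp astrocyte-like profiles. Each MB/HB mouse was above every VISp astrocyte-like and every oligodendrocyte-like profile. The log2 difference was 1.75 (SE 0.23, adjusted p = 3.56e-08) for MB/HB against VISp. For CBX against VISp it was 0.51 (adjusted p = 0.366), and for CBX against MB/HB -1.24 (adjusted p = 0.0158). Leaving out either CBX mouse ended the last call (adjusted p = 0.118 without CBX mouse 1 and 0.137 without CBX mouse 2). Oligodendrocyte-like profiles ran from 129.7 to 323 CPM with a median of 177.5, and their log2 difference from VISp astrocyte-like profiles was 0.13 (SE 0.13, adjusted p = 0.441).

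Averaging log2(CPM + 1) over cells in place of CPM gave a log2 difference of 1.10 for Kcnj10 in oligodendrocyte-like against astrocyte-like cells (adjusted p = 1.58e-05) and of 1.66 in CBX against VISp (adjusted p = 0.00970). The share of cells with a Kcnj10 read was 72.8% of VISp astrocyte-like cells (exact 95% interval 69.4 to 75.98%) and 87.9% of oligodendrocyte-like cells (85.6 to 89.9%). With each cell thinned to 50000 reads the shares were 68.1% and 83.1%. Per mouse the shares overlapped, at 57.6 to 94.1% in VISp astrocyte-like and 72.2 to 100% in oligodendrocyte-like cells without thinning, and they were not tested. In the 3 neuron-like profiles Kcnj10 stood at 1.89, 0 and 0.0724 CPM, with reads in 2 of 52 cells, log2 differences of -6.89 from astrocyte-like (adjusted p = 2.91e-29) and -7.02 from oligodendrocyte-like cells.

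Kcnj16 encodes Kir5.1, which forms mixed channels with Kir4.1. Its mean CPM was 329.7, 131.2, 328 and 268.8 in the MB/HB mice, 243.7 and 275.7 in the CBX mice and 68.2 to 282.9 (median 167.2) in VISp astrocyte-like profiles. The tissues overlapped, and the log2 differences of 0.72 for MB/HB (adjusted p = 0.460) and 0.78 for CBX (adjusted p = 0.654) against VISp did not pass the test. On the mean of log2(CPM + 1) over cells CBX was higher by 3.03 (adjusted p = 3.38e-06), and the share of cells with a read was 93.8% in CBX against 56.2% in VISp and 69.1% in MB/HB. Oligodendrocyte-like profiles held 0 to 17.9 CPM, with 5 of 22 mice at 0, a log2 difference of -5.86 (SE 0.32, adjusted p = 6.29e-23) from astrocyte-like cells. Neuron-like profiles held 2.27, 1.99 and 0 CPM.

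Reads of both Kcnj10 and Kcnj16 were found in 41.5% of VISp, 66.4% of MB/HB and 86.4% of CBX astrocyte-like cells. In oligodendrocyte-like cells 2.70% had both and 85.2% had Kcnj10 alone. In neuron-like cells 1 of 52 had both. These shares were not thinned, and median depth differed between the groups. The part of depth in the shares was not tested.

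**Figure D2:**
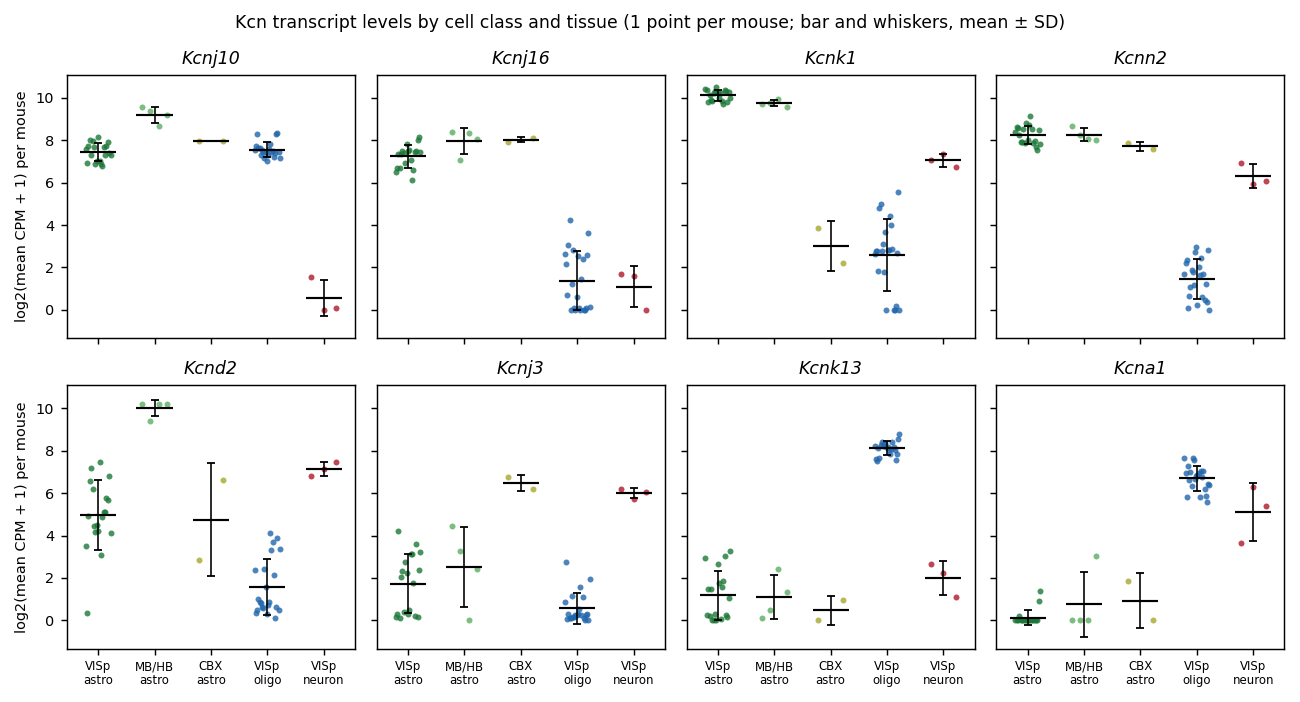
Mean CPM per mouse on a log2(mean CPM + 1) axis for 8 Kcn genes in the 5 groups, with each point 1 mouse and bars showing the mean ± SD over mice. The 4 MB/HB mice lie at 408.2 to 751 CPM for Kcnj10 and 688 to 1186 CPM for Kcnd2, and the 2 CBX mice lie at 13.5 and 3.56 CPM for Kcnk1, where the VISp astrocyte-like mice lie at 827 to 1484 CPM.

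The other inward rectifiers were low in glia with 1 exception. Kcnj3, which encodes GIRK1, a channel opened by G proteins, was at 106.96 and 73.03 CPM in the CBX mice and at 0.0814 to 17.8 (median 3.18) in VISp astrocyte-like profiles. The MB/HB mice held 20.8, 8.58, 0 and 4.37 CPM and the neuron-like profiles 73.04, 51.8 and 66.5 CPM, so CBX mouse 1 lay above every neuron-like profile and CBX mouse 2 just below the highest of them. The log2 difference was 4.75 for CBX against VISp (SE 0.83, adjusted p = 1.99e-05). Against MB/HB it was 3.95 (adjusted p = 0.00353), a call lost without CBX mouse 1 (3.68, adjusted p = 0.0735). A Kcnj3 read was present in 62 of 81 CBX cells (76.5%, interval 65.8 to 85.2%) and 10.6% of VISp astrocyte-like cells, 65.4% and 4.60% after thinning. That interval pools the cells of both CBX mice and does not cover the spread between mice. In the CBX profiles the 12 neuron markers summed to 142.3 and 310.1 CPM and the GABAergic markers to at most 32.6 CPM, and the part of neuronal RNA in the Kcnj3 level was not tested. An exon of Gm26794 overlaps Kcnj3 on the opposite strand.

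Kcnj2, the Kir2.1 gene, was higher in oligodendrocyte-like cells at 0 to 14.9 CPM (median 3.78) against 0 to 0.116 CPM in VISp astrocyte-like profiles (log2 difference 2.10, SE 0.26, adjusted p = 5.46e-10). Kcnj14 was listed at 0 in both CBX mice and held 0 to 18.8 CPM (median 7.09) in VISp astrocyte-like profiles (adjusted p = 0.0461), a call lost in 9 of the alternatives run. In neuron-like against astrocyte-like cells 6 of the 10 tested Kcnj genes were higher and 3 lower (Kcnj10, Kcnj16 and Kcnj14), where 23.4% of all genes were higher and 17.6% lower. The Kcnj14 call was lost in 5 of 17 alternatives. Kcnj9, another GIRK gene, was at 82.5, 47.9 and 35.3 CPM in neuron-like and at most 5.87 CPM in VISp astrocyte-like profiles (log2 difference 5.30, SE 0.54, adjusted p = 3.25e-12).

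Two-pore channels carry background K+ current. Kcnk1, which encodes TWIK-1, had the highest level per kilobase of the Kcn genes in VISp astrocyte-like cells, at 827 to 1484 CPM (median 1209). The MB/HB mice held 844, 873, 988 and 765.4 CPM and the CBX mice 13.5 and 3.56 CPM. Both CBX mice lay below every other astrocyte-like profile, and the log2 difference was -7.10 from VISp (SE 0.84, adjusted p = 1.85e-09) and -6.73 from MB/HB (SE 0.97, adjusted p = 7.41e-07). Reads of Kcnk1 were found in 97.3% of VISp, 86.6% of MB/HB and 12.3% (10 of 81, interval 6.08 to 21.5%) of CBX astrocyte-like cells, and in 97.02%, 85.9% and 9.88% after thinning. Per CBX mouse the unthinned shares were 18.6% and 5.26%. The interval pools their cells and does not cover the spread between mice. Oligodendrocyte-like profiles held 0 to 46.7 CPM (log2 difference from astrocyte-like -7.55, SE 0.35, adjusted p = 7.56e-26). Neuron-like profiles held 131.96, 164.97 and 107.5 CPM, with a read in 52 of 52 cells. Reads of the opposite-strand gene Gm45875, whose exons overlap Kcnk1, cannot be separated if the libraries carry no strand.

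Kcnk10, which encodes the mechanosensitive TREK-2, differed in the same way. It held 0 and 1.30 CPM in CBX, 26.3 to 46.8 CPM in MB/HB and 7.78 to 73.4 CPM (median 50.5) in VISp astrocyte-like profiles (CBX against VISp -4.82, SE 0.64, adjusted p = 5.02e-08). Kcnk3, the acid-sensitive TASK-1 gene, was low but higher in CBX, at 3.92 and 2.44 CPM against 0 to 0.836 CPM in VISp (log2 difference 1.94, adjusted p = 6.12e-06). That call was lost on the mean of log2 values over cells (0.20, adjusted p = 0.145). None of the 11 tested two-pore genes was called in MB/HB against VISp, where 7.46% of all genes were higher and 6.29% lower.

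Kcnk13, the THIK-1 gene, was the leading channel of oligodendrocyte-like cells at 179.7 to 440.2 CPM (median 289.3). VISp astrocyte-like profiles held 0 to 8.69 CPM, the MB/HB mice 0.0663 to 4.36, the CBX mice 0 and 0.934 and neuron-like profiles 5.31, 3.71 and 1.16 CPM. Every oligodendrocyte-like profile was above every other profile. The log2 difference was 6.94 from astrocyte-like cells (SE 0.26, adjusted p = 5.48e-30) and -6.12 for neuron-like against oligodendrocyte-like cells (adjusted p = 4.16e-15). Reads were found in 83.9% of oligodendrocyte-like and 5.82% of VISp astrocyte-like cells, 81.1% and 1.76% after thinning. Kcnk13 in the MB/HB mice lay within the VISp astrocyte-like range, as did Kcna6 and Kcnab1, which were also higher in oligodendrocyte-like cells. Kcna1 and Kcnj2, likewise higher there, were above their VISp astrocyte-like ranges in MB/HB mouse 4, at 7.31 and 6.66 CPM. The part of oligodendrocyte RNA in the MB/HB profiles was not tested.

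The small-conductance calcium-activated channel genes Kcnn2 and Kcnn3 were higher in VISp astrocyte-like cells than in oligodendrocyte-like or neuron-like cells. Kcnn2, the SK2 gene, was at 186.7 to 559.8 CPM (median 307.7) in VISp astrocyte-like profiles, 408.7, 306.1, 265.8 and 257.8 CPM in MB/HB, and 231.6 and 188.7 CPM in CBX. The tissues overlapped, with log2 differences from VISp of 0.01 for MB/HB (SE 0.38, adjusted p = 1) and -0.53 for CBX (adjusted p = 0.658). Oligodendrocyte-like profiles held 0 to 6.85 CPM (log2 difference -6.79, SE 0.22, adjusted p = 7.78e-33). Neuron-like profiles, at 122.4, 59.7 and 66.9 CPM, lay between (-1.93 from astrocyte-like, adjusted p = 0.000209). The share of cells with a Kcnn2 read was 87.01% in VISp, 78.5% in MB/HB and 90.1% in CBX astrocyte-like cells, 86.5% in neuron-like and 7.77% in oligodendrocyte-like cells.

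Kcnn3, the SK3 gene, was at 24.4 to 189.4 CPM (median 82.4) in VISp and 33.5 to 108.3 CPM in MB/HB, but at 2.56 and 1.82 CPM in CBX astrocyte-like profiles. The groups did not overlap, with a log2 difference of -4.72 for CBX against VISp (SE 0.56, adjusted p = 2.85e-09) and -4.31 against MB/HB. It was also lower in oligodendrocyte-like (-5.84) and neuron-like cells (-3.91) than in VISp astrocyte-like cells.

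Kcnma1 encodes the large-conductance BK channel. It was at 234.6, 212.9 and 172.6 CPM in MB/HB mice 1, 3 and 4, 8.61 to 113.3 (median 45.2) in VISp and 14.5 and 29.2 CPM in CBX astrocyte-like profiles. The log2 difference was 2.10 for MB/HB against VISp (SE 0.52, adjusted p = 0.00282), with MB/HB mouse 2 inside the VISp range. For CBX against MB/HB it was -3.03 (adjusted p = 0.00919), lost without CBX mouse 1 (-2.55, adjusted p = 0.180). Kcnmb1, a BK subunit of smooth muscle named here after its values were seen, was called in MB/HB from MB/HB mouse 2 alone (15.1 CPM, 0 in the other 3), the mouse with the highest mural marker sum, and the part of mural RNA in it was not tested. Of the sodium-activated pair, Kcnt1 was lower in CBX than in MB/HB (-2.06, SE 0.71, adjusted p = 0.0479).

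Among voltage-gated pores Kcnd2, which encodes the rapidly inactivating Kv4.2, had the highest level in MB/HB astrocyte-like cells. Its mean CPM was 1183, 688, 1186 and 1172 in the MB/HB mice, 6.31 and 98.1 in the CBX mice and 0.263 to 174.1 (median 29.3) in VISp astrocyte-like profiles. Neuron-like profiles held 110.4, 139.1 and 175.4 CPM and oligodendrocyte-like profiles 0.0832 to 16.5 CPM. Each MB/HB mouse was thus above every profile of the other 4 groups. The log2 difference was 5.06 for MB/HB against VISp (SE 0.76, adjusted p = 1.16e-06). For CBX against VISp it was -0.20 (adjusted p = 0.971), and for CBX against MB/HB -5.26 (SE 1.201, adjusted p = 0.00157). Of the 38 cells of CBX mouse 2, 1 held 2969 CPM while the median cell held 0. Without CBX mouse 1 the last difference was -3.38 (adjusted p = 0.214).

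Reads of Kcnd2 were found in 95.3% of MB/HB (all but 7 cells, exact 95% interval 90.6 to 98.1%), 36.9% of VISp and 32.1% of CBX astrocyte-like cells, 19.3% of oligodendrocyte-like and 98.1% of neuron-like cells. After thinning the shares were 92.6%, 19.8%, 17.3%, 3.99% and 88.5%. Per MB/HB mouse the share was 89.7 to 100% without thinning. The interval, over pooled cells, does not cover the spread between mice. Single cells in which more than 50% of another class's markers were detected made up 9.40% of MB/HB and 2.71% of VISp astrocyte-like cells, and without them the Kcnd2 call held.

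**Figure D3:**
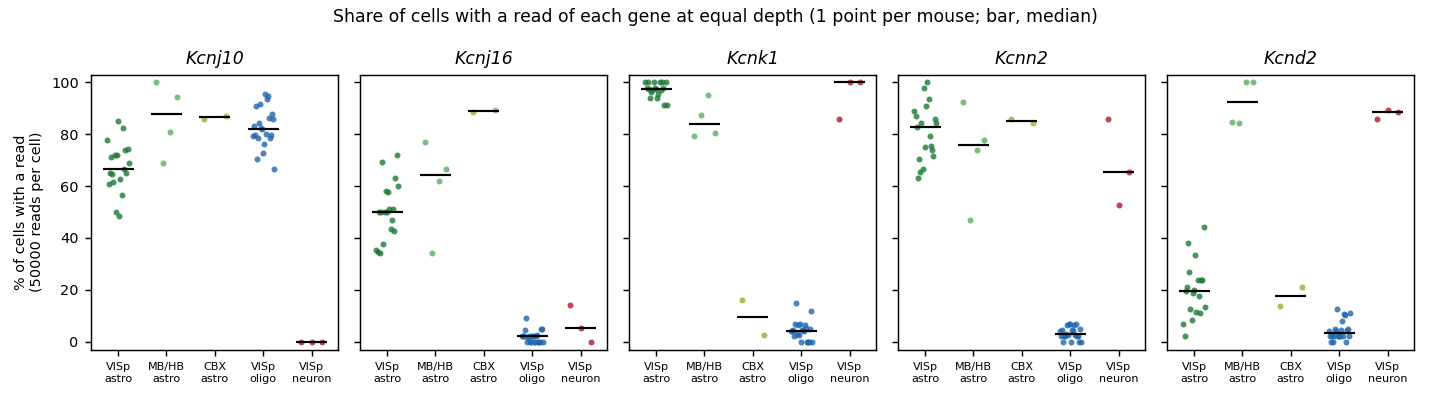
Share of cells (vertical axis, %) with at least 1 read of 5 Kcn genes after each cell was thinned to 50000 reads, in the 5 groups, with each point 1 mouse and the bar the median over mice. Over all cells of a group Kcnd2 was found in 92.6% of MB/HB and 17.3% of CBX astrocyte-like cells, and Kcnk1 in 97.02% of VISp and 9.88% of CBX astrocyte-like cells.

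Kcns3 encodes a modifying pore subunit that is silent on its own. It was at 46.2, 37.4, 39.9 and 54.2 CPM in MB/HB, at 0 to 1.197 CPM (median 0.124) in VISp, and at 2.004 and 0 CPM in CBX astrocyte-like profiles. The log2 difference for MB/HB against VISp was 5.24 (SE 0.24, adjusted p = 1.70e-24). The alternatives run gave 1.31 to 7.55, the lowest on the mean of log2 values over cells, since only 19.5% of MB/HB cells had a read. Neuron-like profiles were higher still, at 87.7, 94.3 and 98.3 CPM, with a read in 82.7% of cells.

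Kcnq3, an M-current subunit, was at 48.4 to 336 CPM (median 196.9) in VISp and 170.4 to 261.5 CPM in MB/HB, but at 7.82 and 0.917 CPM in CBX astrocyte-like profiles. The log2 difference for CBX was -5.27 from VISp (SE 0.45, adjusted p = 1.36e-13) and -5.61 from MB/HB (SE 0.52, adjusted p = 3.35e-12), with no overlap. Kcna2, a Kv1 pore of axons, was lower in CBX (32.1 and 46.4 CPM against 53.6 to 181.2, log2 difference -1.28, adjusted p = 0.0118), a call lost without either CBX mouse (adjusted p = 0.312 and 0.0557).

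In MB/HB 8 of the 35 tested voltage-gated pores were higher and 1 lower than in VISp astrocyte-like cells (7.46% and 6.29% of all genes). Besides Kcnd2 and Kcns3, Kcng4, another silent subunit, was at 87.6, 19.6, 124.2 and 97.3 CPM against 0.531 to 49.9 (log2 difference 1.93, adjusted p = 0.00736). Kcnc4, a rapidly inactivating Kv3 pore, was at 46.8, 46.98, 71.3 and 45.96 CPM against 0.492 to 32.4 (1.70, adjusted p = 0.0109). Both calls were lost without MB/HB mouse 3 (adjusted p = 0.0549 and 0.0507). Kcnd3, another Kv4 pore, passed more narrowly (adjusted p = 0.0468) and missed the threshold in 10 of 18 alternatives, among them AB plates alone (adjusted p = 0.0957) and the fits without MB/HB mouse 3 or 4 (adjusted p = 0.173 and 0.210). Kcnh6 was the 1 lower gene, at 0.957 to 5.90 CPM against 1.04 to 26.8 (log2 difference -1.30, adjusted p = 0.0165). Its call was lost in 4 of 18 alternatives. Among these were AB plates alone (adjusted p = 0.0551) and the fits without MB/HB mouse 1 or 3 (adjusted p = 0.0758 and 0.131).

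In CBX these higher pores were low in level and rested on CBX mouse 1. Kcna4 (5.09 and 0.0975 CPM) and Kcng2 (4.27 and 0.833 CPM) had log2 differences of 1.23 and 1.43 from VISp, which were -0.01 and 0.67 without that mouse and no longer passed. Both genes were higher in neuron-like than in astrocyte-like cells of VISp. The neuron marker sum was 310.1 CPM in CBX mouse 1 and 142.3 CPM in the other CBX mouse. VISp astrocyte-like profiles held 19.1 to 396.6 CPM (median 125.6). The GABAergic marker sum was 32.6 CPM in CBX mouse 1 and 7.07 CPM in the other, against at most 29.1 CPM in VISp. The part of neuronal RNA in these levels was not tested.

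**Figure D4:**
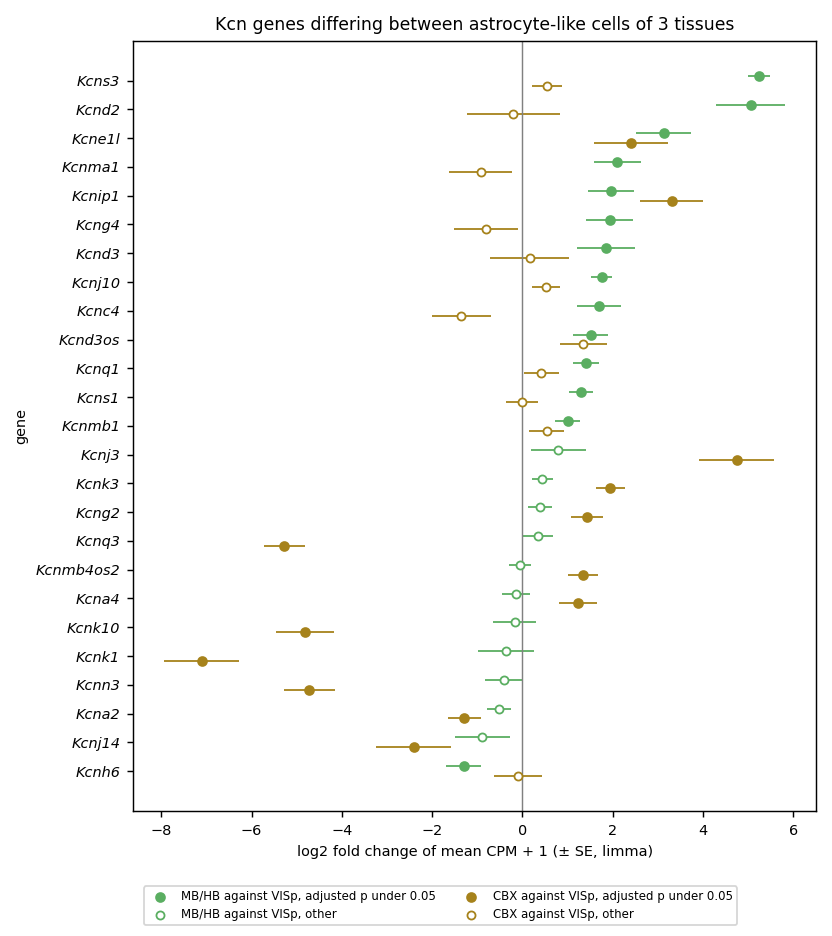
Log2 fold change of mean CPM + 1 (horizontal axis, ± SE from limma) for Kcn genes called in MB/HB or CBX against VISp astrocyte-like cells, with filled points for an adjusted p under 0.05. Kcns3 (5.24) and Kcnd2 (5.06) are highest in MB/HB, Kcnj3 (4.75) is highest in CBX, and Kcnk1 (-7.10), Kcnq3, Kcnk10 and Kcnn3 are lowest in CBX.

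Oligodendrocyte-like cells had 2 of 35 voltage-gated pores higher and 13 lower than astrocyte-like cells of VISp, where 18% of all genes were higher and 33.6% lower, so the share lower was near that of all genes. The higher pair were Kv1 pores. Kcna1 (Kv1.1) was at 47.4 to 204.4 CPM (median 108.7) against 0 to 1.63 CPM, with 16 of 19 astrocyte-like mice at 0 (log2 difference 6.56, SE 0.23, adjusted p = 4.54e-31). Kcna6 (Kv1.6) was at 58.4 to 139.9 CPM (median 92.2) against 0 to 32.7 CPM (4.92, SE 0.31, adjusted p = 1.63e-20). Neither overlapped with astrocyte-like profiles. Kcna1 was at 11.4, 78.5 and 41.6 CPM in neuron-like cells, lower than in oligodendrocyte-like cells (-1.57, adjusted p = 0.00371), a call lost in 5 of 18 alternatives (-0.83, adjusted p = 0.236 without neuron mouse 1, and -0.47, adjusted p = 0.390 on the mean of log2 values over cells). Kcna6 was at 33.7, 81.7 and 51.7 CPM (-0.85, adjusted p = 0.295). Exons of Gm26673 overlap Kcna6 on the opposite strand. Kcna2, the third of these Kv1 genes, was lower in oligodendrocyte-like cells (18.05 to 74.5 CPM against 53.6 to 181.2, -1.30, adjusted p = 2.14e-10).

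In neuron-like cells 21 of 35 voltage-gated pores were higher and 1 lower than in VISp astrocyte-like cells (23.4% and 17.6% of all genes). The highest log2 differences among them were those of a pair of Kv3 pores of fast-spiking interneurons, Kcnc1 at 227.8, 262.99 and 220.7 CPM (6.43, SE 0.76, adjusted p = 3.71e-10) and Kcnc2 at 97.1, 290.7 and 258.3 CPM (6.68, SE 0.64, adjusted p = 4.88e-13). Glia held at most 39.5 CPM of Kcnc1 and 21.7 CPM of Kcnc2, both in MB/HB mouse 4, whose neuron marker sum was the highest of the MB/HB mice. The part of neuronal RNA in those 2 values was not tested. Kcnd2 passed with less margin (2.18, adjusted p = 0.0371) and missed the threshold in 8 of 18 alternatives.

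Auxiliary subunits divided by class. Kcnip3, a calcium-binding partner of Kv4 pores, was at 515.04, 368.7, 511.6 and 345.98 CPM in MB/HB, 285.2 and 182.3 CPM in CBX and 101.8 to 363.97 (median 185.8) in VISp astrocyte-like profiles. MB/HB did not pass against VISp (log2 difference 1.13, adjusted p = 0.0929). Oligodendrocyte-like (0.985 to 49.8 CPM, -3.90, adjusted p = 2.61e-19) and neuron-like profiles (43.1, 20.3 and 18.7 CPM, -2.89, adjusted p = 4.55e-06) were lower. Kcnip1, of the same family, was at 465.4, 673.6 and 706.01 CPM in neuron-like and 0.509 to 8.67 CPM in VISp astrocyte-like profiles (7.55, SE 0.58, adjusted p = 2.40e-16). It was at 49.7 and 19.19 CPM in CBX (3.31 from VISp, adjusted p = 0.000362, and 0.0933 without CBX mouse 1) and at 23.9, 37.5, 1.09 and 11.6 CPM in MB/HB (1.96, adjusted p = 0.00494, and 0.0923 without MB/HB mouse 2).

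Kcne1l, a single-span auxiliary subunit also known as Kcne5, was listed at 0 in all neuron-like profiles. It was at 44.9, 38.8, 71.1 and 76.1 CPM in MB/HB and 45.3 and 24.2 CPM in CBX, against 0 to 26.3 CPM (median 6.98) in VISp astrocyte-like profiles. Log2 differences from VISp were 3.13 for MB/HB (SE 0.61, adjusted p = 0.000115) and 2.40 for CBX (adjusted p = 0.0436, and 0.456 without CBX mouse 1). Kcnab1, a cytoplasmic beta subunit of Kv1 pores, was higher in oligodendrocyte-like (5.90 to 41.5 CPM, 2.56, adjusted p = 3.96e-08) and neuron-like profiles (123.8, 384.9 and 239.2 CPM, 6.22, adjusted p = 3.73e-10) than in VISp astrocyte-like profiles (0 to 24.5 CPM). In neuron-like against VISp astrocyte-like cells 6 of 8 auxiliary subunits were higher and 2 lower, where 23.4% of all genes were higher and 17.6% lower. Kcnmb2, a BK subunit, was at 83.5, 110.8 and 58.7 CPM in neuron-like profiles (5.66 from astrocyte-like, adjusted p = 2.28e-13).

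The other genes of K+ handling were followed in a list of 36 channel partners, transporters and pumps, of which 35 were tested. In MB/HB against VISp 5 were higher and 2 lower (7.46% and 6.29% of all genes tested), in CBX against VISp 5 and 5 (7.23% and 5.18%), and in CBX against MB/HB 2 and 4 (5.57% and 5.70%). In oligodendrocyte-like against astrocyte-like cells 6 were higher, a share near the 18% of all genes, and 18 lower (33.6% of all genes). In neuron-like cells they were 15 and 9 against astrocyte-like (23.4% and 17.6% of all genes) and 18 and 7 against oligodendrocyte-like cells (28% and 12.7%). These genes were among those clustered, and Aqp4 is one of the markers, so their class differences are descriptions and no test. Dpp6, an auxiliary subunit of Kv4 pores, was at 24.2 to 102.8 CPM in MB/HB and 27.9 and 38.6 CPM in CBX against 0.0335 to 16.7 CPM in VISp astrocyte-like profiles (4.22, adjusted p = 5.30e-06, and 3.98, adjusted p = 0.00132). Atp1b1, a sodium pump beta subunit, was lower in both (0.0473 to 81.6 CPM in MB/HB, 21.7 and 65.6 CPM in CBX, 305 to 604.7 CPM in VISp; -5.38, adjusted p = 7.43e-09, and -3.57, adjusted p = 0.00313).

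Of the partners in oligodendrocyte-like cells, Cntn2, an adhesion protein of axons that clusters Kv1 channels, was at 136.9 to 323.7 CPM against 0 to 12.9 CPM in astrocyte-like profiles, and the cotransporter gene Slc12a2 at 406.6 to 979 against 0 to 20.97 CPM.

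Between vectors, Kcn levels were compared within VISp. An F-test over 7 vectors with at least 2 mice (14 mice) in astrocyte-like cells called 0 of 2560 genes (0%), with 4.88% at an unadjusted p under 0.05, and 0 of 62 Kcn genes, with 4 at an unadjusted p under 0.05. Without the filter on low values 2 Kcn genes were called. The smallest Kcn p was that of Kcnh8 (p = 0.000259, adjusted p = 0.374), at 12.7 and 14.1 CPM with GFAP_promoter, 5.20 and 8.57 CPM with eHGT_380h and at most 1.01 CPM with the other 5 vectors. Kcnk7 followed (p = 0.00194, adjusted p = 0.452), with reads in the 2 eHGT_385m mice alone (2.70 and 6.80 CPM). In oligodendrocyte-like cells the F-test over 5 vectors (12 mice) called 1 of 2174 genes (0.0460%), which is not a Kcn gene. There 1 of 46 Kcn genes had an unadjusted p under 0.05, Kcnip3 (p = 0.0345, adjusted p = 0.721), followed by Kcnk1 (p = 0.0503, adjusted p = 0.811).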

How the data were processed

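RNA was measured in 2040 single sorted cells, 1 library per cell, and the mouse was taken as the replicate. Per the labels' protocols the libraries were made with SMARTerv4. The submitters' processing notes name STAR and the mm10 genome build, and the annotation, counting settings and strandedness are not given in the sources used here. The deposited values are CPM: the values of each cell add up to 1000000, and all 9484843 positive values (100%) were whole multiples of 1 read of their line within 0.001 reads. Cells held 57873 to 1455022 reads, with a median of 434102. No read interval or share here covers more than counting error.

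The 99 Kcn columns, 155 curated and 4745 randomly drawn columns were used, 4999 in all; the other 27246 per-cell gene columns were not used here. The Kcn genes and the gene lists were chosen with earlier results of these data known. Cells were clustered without Kcn genes: the 2000 most variable panel genes, 30 principal components, 15 nearest neighbours, and Leiden communities (resolution 1), in Python 3.11.15 with scikit-learn 1.9.0, igraph 0.11.9 and leidenalg 0.10.2. The 11 clusters were named from marker lists, each by the list with the highest mean. A name was withheld where another list had more markers among a cluster's top 10 genes. Clusters in which more than 50% of another list's markers were detected stayed unnamed, which took out 48 cells and stands in for a doublet caller; 1992 cells were in named clusters, and 1984 of these had the same class when it was called cell by cell. No cell name was shared (0). The names are rebuilt, not the submitters'.

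CPM was averaged over the cells of a class in each mouse (at least 10 glial or 5 neuron-like cells) and the mean put on the log2(CPM + 1) scale. Genes that reached 1 CPM in at least 2 of these profiles were fitted with limma 3.58.1 in R 4.3.3, in 1 linear model of the 5 groups with empirical Bayes and an intensity trend. P-values are two-sided and were adjusted by Benjamini-Hochberg over all panel genes tested, with a threshold of 0.05. The CBX group has 2 mice, so its spread is borrowed from the other groups. Vectors were compared by limma F-tests. The fit was also run on simulated data in which each gene had the same spread in all 5 groups. That run cannot show how the fit behaves where the spread differs between groups. Shares of cells have exact (Clopper-Pearson) 95% intervals (scipy 1.17.1). These intervals pool the cells of a group and do not cover the spread between mice. Genes named with values are Kcnd2, Kcnj10, Kcnj16 and Kcnn2, up to 10 called genes per direction and contrast ranked by fold change, the 8 Kcn genes with the highest median level in each group, and the 2 with the smallest p in each vector test. Some genes and sequences that fall under this rule are not reported here. Partners past the threshold with a log2 difference of at least 2 in size could be named. The check of replicate mice as a block used limma's duplicate correlation, since 1 mouse can give cells of 2 classes. Gene places, exon lengths and coding sequences come from GENCODE M21 (GRCm38, the same assembly as mm10).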

Additional observations from a re-analysis of the deposited data

Results flagged for a closer look

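In the 4 MB/HB mice, 1 mouse stood apart from the other 3 for 7 of the 35 named genes that could be examined. This was measured as its gap to the nearest mouse over the range of all 4. Where the other 3 hold 0, any read in the fourth sets the ratio at 1. The count is therefore a description and is not set against a chance rate. Mouse 4 stood apart for 4 of them: Kcna1 (7.31 CPM against 0 in the other 3, ratio 1), Kcnj2 (6.66 against 0, ratio 1), Kcnk3 (3.48 against 0, ratio 1) and Kcnu1 (13.6 against 0.132 to 0.725, ratio 0.835). This mouse had the highest oligodendrocyte (6262 CPM) and neuron (398.2 CPM) marker sums of the 4. Kcna1 and Kcnj2 were higher in oligodendrocyte-like than in astrocyte-like cells of VISp, and Kcnk3 in neuron-like cells. The part of other cells' RNA in these values was not tested.

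Mouse 2 was low for Kcnd2 (688 CPM against 1172 to 1186, ratio 0.978), and had the highest endothelial and mural marker sums. It also had the lowest OPC marker sum (62.95 CPM against 160.2 to 206.6). The part of other cells' RNA in its Kcnd2 level was not tested. Mouse 3 was high for Kcnc4 (71.3 CPM against 45.96 to 46.98, ratio 0.950) and Kcng2 (3.97 against 0 to 0.0560, ratio 0.966).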

How the results depend on the processing

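The counts of called Kcn genes kept within 1.5 times under the alternatives run (other pseudocounts, filter, scaling, cell classes, cell minimum, depth, plates, summaries over cells, and single mice left out) with these exceptions. CBX against MB/HB fell from 17 to 9 with a pseudocount of 0.1 CPM, to 7 with only the groups compared in the fit and to 6 without CBX mouse 1. CBX against VISp fell from 14 to 6 without CBX mouse 1. The vector test in astrocyte-like cells rose from 0 to 2 with no filter. With 1 mouse left out the counts were 6 to 17, 6 to 13 and 13 to 16 for CBX against MB/HB, CBX against VISp and MB/HB against VISp, 47 to 56 and 50 to 55 for neuron-like against astrocyte-like and oligodendrocyte-like cells, and 0 for both vector tests. The split of higher and lower genes moved by over 10 points to 13 and 3 for MB/HB against VISp on the mean of log2 values and to 5 and 6 for CBX against VISp with 0.1 CPM. It also moved that far to 0 and 7 for CBX against MB/HB with only the groups compared, to 0 and 6 (CBX against MB/HB) and 2 and 4 (CBX against VISp) without CBX mouse 1, and to 5 and 7 and 9 and 4 without CBX mouse 2. On the mean of log2 values the median of all genes was 0.34 (CBX against MB/HB), 0.21 (CBX against VISp), -0.12 (MB/HB against VISp), 1.44 and 1.40 (neuron-like against astrocyte-like and oligodendrocyte-like), and with 0.1 CPM it was -0.38 (oligodendrocyte-like against astrocyte-like) and 0.33 (neuron-like against oligodendrocyte-like). With the mouse as a replicate block (correlation 0.0709) the counts were 15, 14, 17, 37, 54 and 54 in the order of the contrasts in the text, the last 53 without it. No other call count changed under the block.

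For single genes, 1701 values kept direction and side of the threshold, 5 gained a call, 11 low values moved and 13 changed sign, none of the last with a call in the alternative; the others lost their call. Kcnn2 in MB/HB against VISp (0.01) was -0.69 on the mean of log2 values, -0.0147 with at least 20 glial or 10 neuron-like cells, and -0.136 to 0.0847 with 1 mouse left out, lowest without MB/HB mouse 1. In CBX against MB/HB Kcnn2 was 0.59 on the mean of log2 values. Kcnj16 in CBX against MB/HB was -0.0287 without CBX mouse 2 and -0.25 without MB/HB mouse 2, and up to 0.195 without another mouse, and it was called on the mean of log2 values (1.999, adjusted p = 0.00642). In neuron-like against oligodendrocyte-like cells Kcnj16 was 0.14 on the mean of log2 values and 0.26 without neuron mouse 3, and down to -0.59 without another. Kcnj10 in oligodendrocyte-like against astrocyte-like cells was -0.0361 where the ratio of mean CPM named the clusters. In CBX against VISp the 2 values without CBX mouse 1 and without CBX mouse 2 were 1.68 and -2.08 for Kcnd2, -0.00997 and 2.46 for Kcna4, and -0.0559 and 2.74 for Kcnmb4os2, and in CBX against MB/HB Kcnmb4os2 was 0 and 2.79. The cause was not tested. In MB/HB against VISp, Kcnd2, Kcns3, Kcnj10, Kcne1l and Kcnma1 kept their calls in all 18 alternatives run, and in CBX against VISp Kcnk1, Kcnq3, Kcnk10, Kcnn3 and Kcnj3 in all 17. The planned edgeR test was not run, because the table is deposited as CPM. A limma fit of recovered reads added up per mouse was chosen after seeing the data, as was naming by ratio, which left no MB/HB group. Depth limits low genes: 3 reads over a group are 0.00717 CPM in oligodendrocyte-like and 0.140 CPM in neuron-like cells.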

Other observations

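In MB/HB, 15 cells were neuron-like and entered no comparison, 12 of them from MB/HB mouse 2 (eHGT_381h). Their highest mean levels among Kcn genes were 238.3 CPM for Kcnip4, 153.3 for Kcnip1, 85.1 for Kcnh7, 80.1 for Kcnd2 and 78.2 for Kcnk1. Kcnd2 was thus lower in these 15 cells than in any of the 4 MB/HB astrocyte-like profiles, and a Kcnd2 read was found in 12 of the 15. The 46 VISp cells of the unnamed cluster, in which neuron and oligodendrocyte markers were both detected, had mean levels of 515.3 CPM for Kcnip4, 328.7 for Kcnma1, 214.4 for Kcnh7, 175.6 for Kcnq5, 170.8 for Kcnip3, 162.9 for Kcnq3 and 158.2 for Kcnd2.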
